A study of Mus musculus with 24 samples.

Results

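The mu and theta classes of glutathione transferase were followed in differentiated mouse tracheal epithelium exposed to cigarette smoke. Their 10 genes, Gstm1 to Gstm7 of the mu class and Gstt1 to Gstt3 of the theta class, were taken by symbol from a table of normalised counts with 25239 genes. The cells were primary tracheal epithelial cells of FVB/NJ mice of wild-type genotype, 7 to 8 weeks old, expanded submerged in medium and then differentiated for 10 to 14 days at an air-liquid interface, a culture form in which the upper face of the cells meets air. Inserts of female cells were exposed for 10 days to cigarette smoke (6 inserts) or to humidified air (6 inserts), and inserts of male cells likewise to smoke (6) or air (6), with 2 cigarettes burned over about 8 minutes in 1 exposure. The labels number the inserts and name no donor animals, so p-values measure the spread between inserts, which may be technical, and the sex of the donors and the cell preparation cannot be told apart.

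Glutathione transferases are enzymes that join the thiol glutathione to reactive, electron-poor molecules, among them epoxides and aldehydes of the kind that burning tobacco gives off. The conjugate is pumped out of the cell and trimmed to a mercapturate, so these enzymes stand between the oxidising cytochromes P450 and excretion. The mu class is best known for conjugating epoxides of aromatic hydrocarbons, and the theta class, whose active site uses a serine where the mu class uses a tyrosine, for small halogenated molecules. In human, GSTM1 and GSTT1 are known for common whole-gene deletions and have been much studied in smokers.

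The 7 mu genes lie side by side on mouse chromosome 3, from 107895854 to 108044859 of the mm10 build in the deposited annotation. Gstm5 is on the plus strand and the other 6 on the minus strand. The theta genes lie on the minus strand of chromosome 10, from 75774117 to 75834881, with Gstt4 between Gstt1 and Gstt2. All values below are sums over a gene's exons, which cover 911 (Gstm5) to 1894 (Gstt3) bases. Because the mu genes resemble each other, the same coding stretch is shown for all 7, from the GENCODE M21 transcripts of GRCm38 (the same build), with capitals where a base differs from Gstm1. Each line gives coding bases 1 to 60 from the start codon, except that of Gstm5, which gives the aligned bases 10 to 69.
Gstm1: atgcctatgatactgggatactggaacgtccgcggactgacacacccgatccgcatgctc
Gstm2: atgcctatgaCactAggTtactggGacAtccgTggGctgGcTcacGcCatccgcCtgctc
Gstm3: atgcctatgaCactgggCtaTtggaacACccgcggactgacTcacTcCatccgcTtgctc
Gstm4: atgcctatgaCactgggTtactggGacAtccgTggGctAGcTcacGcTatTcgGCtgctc
Gstm5: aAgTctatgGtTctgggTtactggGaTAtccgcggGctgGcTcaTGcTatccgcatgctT
Gstm6: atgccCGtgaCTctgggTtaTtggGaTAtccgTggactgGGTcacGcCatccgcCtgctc
Gstm7: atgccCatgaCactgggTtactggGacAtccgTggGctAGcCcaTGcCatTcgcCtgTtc
Gstm3 differs from Gstm1 at 9 of these 60 bases, Gstm2 at 12, and Gstm6 and Gstm7 at 16 each. Over whole coding sequences, identity within the mu class ran from 69.4% to 89.4% (median 82.3%, 21 pairs), with Gstm1 and Gstm3 the closest pair, and within the theta class from 60.9% to 75.0%. Of all 50-base windows of the longest coding transcript, 23.1% in Gstm1, 28.8% in Gstm3, 11.8% in Gstm6, 9.36% in Gstm2 and 26.0% in Gstt3 also occur in another annotated gene or pseudogene, and none in Gstm4, Gstm5, Gstm7, Gstt1 or Gstt2. At 100 bases these shares were 7.73% for Gstm1, 13.8% for Gstm3, 2.47% for Gstm6, 0.622% for Gstm2 and 23.9% for Gstt3. How the authors treated reads that match several genes is not given in the sources used here, so the values of those 5 genes, and above all the low values of Gstm3 beside its abundant near copy Gstm1, are less certain. Gstt3 shares its windows with Gm20441 alone, which has no values among the counted genes.

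Depth was 16038813 to 24485024 gene-assigned reads in the 23 libraries whose reads were recovered, and the sex-linked transcripts matched the labelled sex in all 24 libraries. Of the 10 genes, 9 passed the filter of a mean of at least 10 normalised counts over the 24 libraries. Gstm3, with a mean of 9.66, did not and was left out of the main test. A pair of libraries stood apart by transcript length. In female air insert 1 the 2669 genes with 911 to 1894 exon bases lay at a median of 0.98 log2 units above their group median while genes of 4629 exon bases or more lay at -0.85, and in female smoke insert 4 the same medians were 0.44 and -0.47. The female smoke responses are therefore also given without both libraries.

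Transcripts of Gstm1 and Gstm2 made up nearly the whole mu class. Summed per kilobase of exon, mu-class transcripts averaged 4913 ± 2773 normalised counts in female smoke and 10745 ± 4693 in female air inserts (SD, n = 6 each). In male cells the sum averaged 8741 ± 1873 in smoke and 25102 ± 3072 in air (SD, n = 6 each), so the 2 male groups did not overlap. Gstm1 held 70.6 ± 9.8% of this sum in female smoke and 77.7 ± 2.8% in female air, and 69.0 ± 3.3% in male smoke and 64.0 ± 1.5% in male air. Gstm2 held 20.8 ± 5.0% in female smoke and 17.3 ± 1.6% in female air, and 27.0 ± 3.6% in male smoke and 34.1 ± 1.5% in male air. The theta class was far less abundant, at 429 ± 47 per kilobase in female smoke and 470 ± 113 in female air, and 344 ± 72 in male smoke and 576 ± 60 in male air (SD, n = 6 each). Within it Gstt3 was the main transcript, with 92.3% of the class in female smoke and 82.7% in female air, and 86.9% in male smoke and 69.1% in male air. The share of Gstt1 in the theta class was 5.38 ± 2.11% in female smoke against 15.4 ± 2.9% in female air, and 11.6 ± 3.9% in male smoke against 30.2 ± 6.7% in male air.

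**Figure D1:**
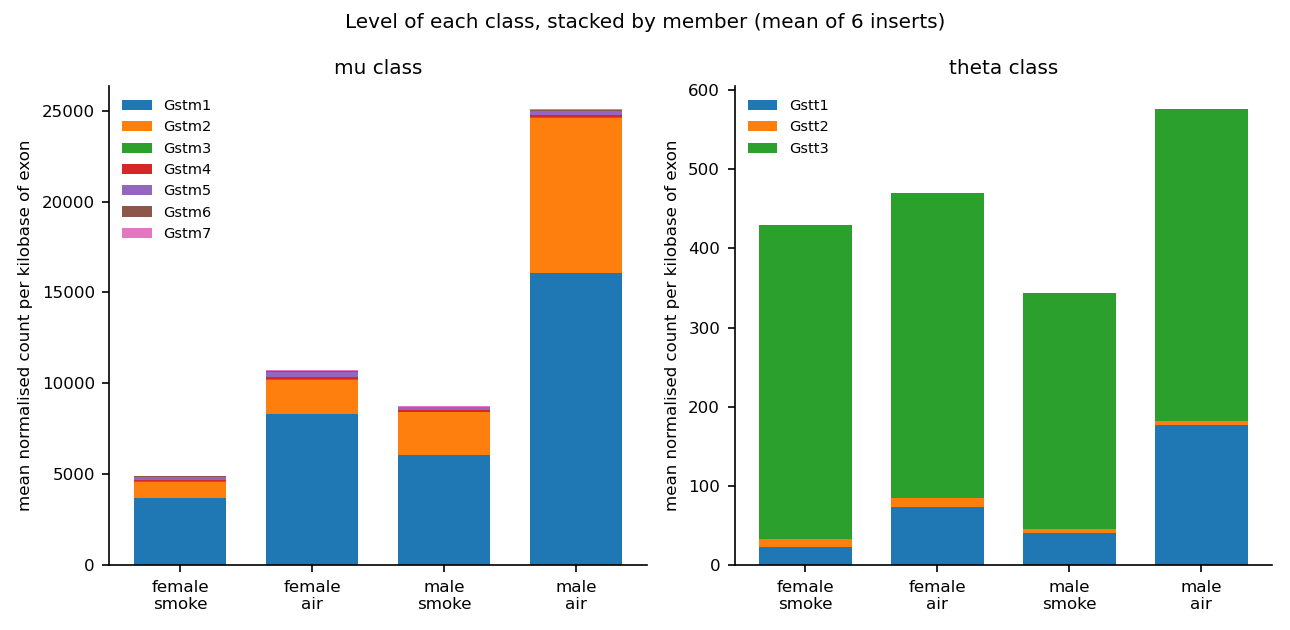
Mean normalised count per kilobase of exon in each group of 6 inserts, stacked by gene, for the mu class (left) and the theta class (right), on axes of different range. Gstm1 and Gstm2 fill nearly all of each mu bar, and the tallest mu bar is male air (25102), while Gstt3 fills most of each theta bar.

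Ranked per kilobase, the order in female air was Gstm1 (8309), Gstm2 (1889), Gstt3 (385), Gstm5 (257), Gstm4 (140.0), Gstm6 (80.0), Gstt1 (73.8), Gstm7 (55.6), Gstm3 (14.3) and Gstt2 (10.5). Inserts of neighbours in this order did not overlap between Gstm1 and Gstm2, between Gstm2 and Gstt3, or between Gstm7 and Gstm3, and overlapped for all other neighbours. Male air had the order Gstm1 (16082.5), Gstm2 (8537), Gstt3 (395), Gstm5 (226), Gstt1 (177), Gstm4 (150.1), Gstm7 (57.3), Gstm6 (43.7), Gstm3 (5.68) and Gstt2 (4.61). There the neighbours that overlapped were Gstm5 and Gstt1, Gstt1 and Gstm4, Gstm7 and Gstm6, and Gstm3 and Gstt2.

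The 2 abundant mu genes were lower after smoke in both sexes. Gstm1, a general mu-class enzyme, ranged from 1881 to 9544 normalised counts in female smoke inserts (median 3956), against 5957 to 18022.5 in female air inserts (median 11233). The female groups overlapped, with 4 of 6 smoke inserts below every air insert and smoke inserts 2 and 3 among the air values. Gstm1 fell by 1.36 ± 0.34 (SE) log2 units, a fold of 0.391 (limma, adjusted p = 0.00395). In male cells it ranged from 6260.4 to 10606 in smoke (median 7745), against 18768 to 26339 in air (median 21670.0), with no overlap. The male change was a fall by 1.43 ± 0.34 log2 units, a fold of 0.371 (limma, adjusted p = 0.00431). All 4 groups share 1 estimate of spread per gene in this fit. The SE is therefore the same in both sexes, and male p-values also carry the spread of the female inserts. In the authors' deposited tables the SE of Gstm1 was 0.39 in female and 0.14 in male cells. In bulk RNA a smaller number of cells of a type and less RNA per cell cannot be told apart, here and for each gene that follows.

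Gstm2, whose human counterpart is known for conjugating oxidised catecholamines, ranged from 581 to 1405 in female smoke inserts (median 928), against 1023 to 3697 in female air inserts (median 1763). Of the smoke inserts, 3 lay below every air insert and the other 3 overlapped. Gstm2 fell by 0.97 ± 0.27 log2 units in female cells, a fold of 0.509 (limma, adjusted p = 0.00694). In male cells it ranged from 1689.8 to 3656 in smoke (median 2279.8), against 7734 to 10524 in air (median 8716). These male groups were far apart: the highest smoke insert lay below the lowest air insert by more than the whole range of the air group. Gstm2 fell by 1.88 ± 0.27 log2 units in male cells, a fold of 0.271 (limma, adjusted p = 3.67e-05).

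**Figure D2:**
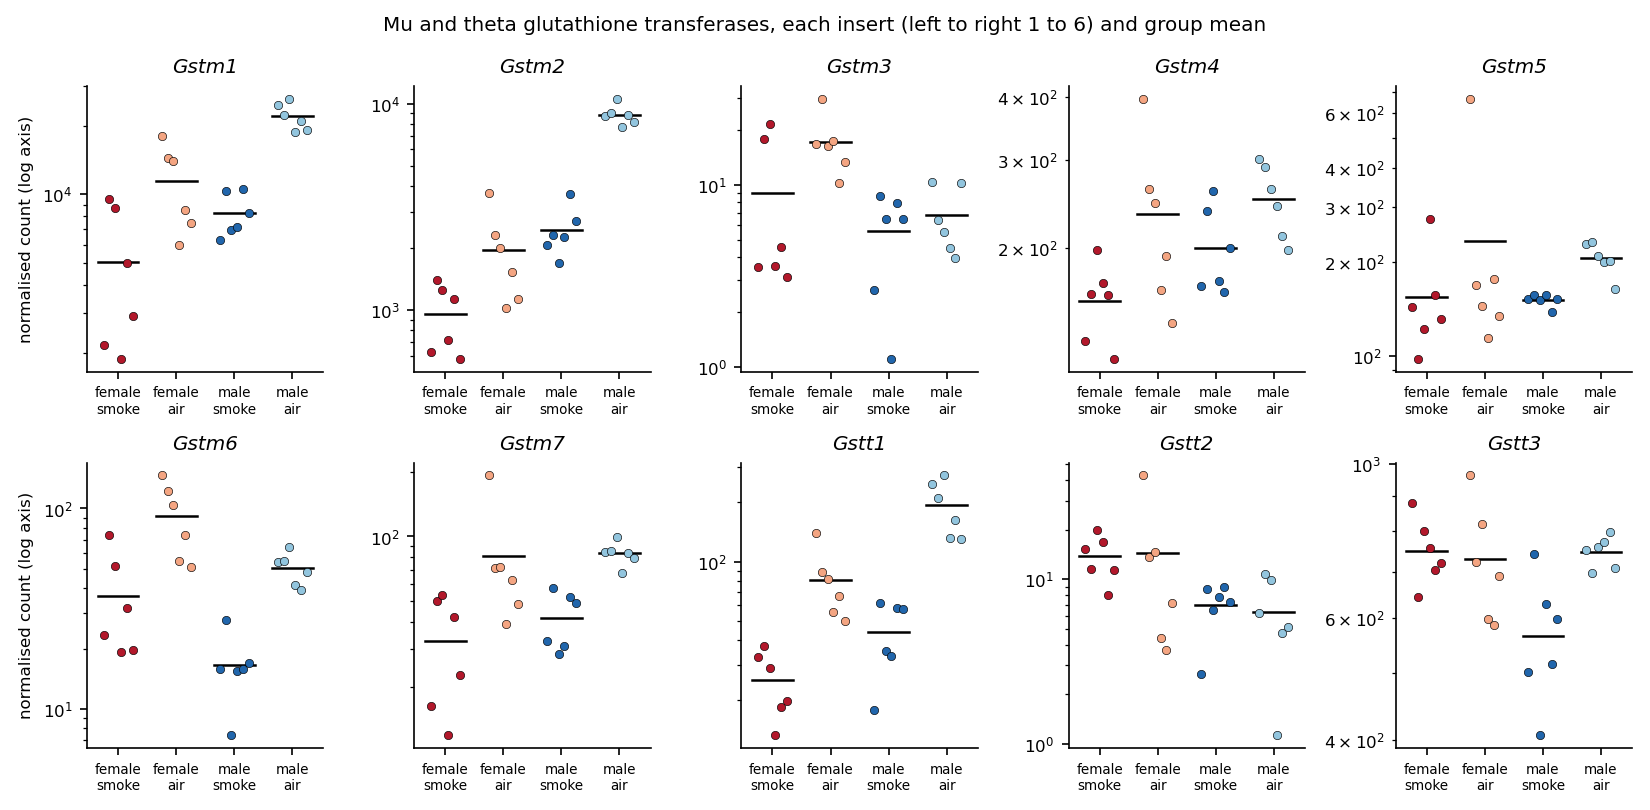
Normalised count of each of the 10 genes in every insert (points, inserts 1 to 6 from left to right, log axis) with the mean of each group of 6 as a bar. In male cells the smoke points of Gstm1, Gstm2, Gstm5, Gstm6, Gstm7 and Gstt1 all lie below the air points, and in female cells those of Gstt1 alone do.

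Gstm6 and Gstm7, low-abundance mu genes, fell as well. Gstm6 ranged from 19.2 to 74.0 in female smoke (median 27.7), against 50.9 to 146 in female air (median 89.4). It ranged from 7.39 to 27.7 in male smoke (median 15.9), against 39.4 to 64.1 in male air (median 51.0). In female cells 4 of 6 smoke inserts lay below every air insert, and in male cells all 6 did. The log2 fold change was -1.38 ± 0.33 in female cells (limma, adjusted p = 0.0031) and -1.62 ± 0.33 in male cells (limma, adjusted p = 0.00145).

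Gstm7 ranged from 12.0 to 53.5 in female smoke (median 32.5), against 39.2 to 192 in female air (median 67.2). In male cells it ranged from 28.6 to 57.8 in smoke (median 41.0), against 67.5 to 99.4 in air (median 84.2). The female groups overlapped in 3 smoke inserts and the male groups not at all. The log2 fold change was -1.28 ± 0.35 in female cells (limma, adjusted p = 0.00761) and -1.02 ± 0.35 in male cells (limma, adjusted p = 0.0408). The male call had the highest adjusted p of the 6 made there. It was lost when any one of male air inserts 1, 2, 3, 5 or 6 or male smoke inserts 1, 3 or 4 was left out. The log2 fold change ran from -1.12 to -0.92 over all 24 such fits. The call was also lost with edgeR on recovered reads (-1.06) and without the filter on low values, and it held in 26 of 39 alternatives. Its spread is estimated together with the female inserts, where the SD in air was 55.7, against 10.3 in male air. For male cells the authors' deposited table gave -0.92 (DESeq2, adjusted p = 6.87e-06).

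Gstm4 and Gstm5 did not pass the test in either sex, and Gstm3 was left out of the main test. Gstm4 ranged from 120.1 to 198 in female smoke (median 161), against 142 to 397 in female air (median 219.6), and from 163 to 260.4 in male smoke (median 186), against 198 to 301 in male air (median 253). Its log2 fold change was -0.51 ± 0.20 in female cells (limma, adjusted p = 0.0527; 95% interval -0.92 to -0.09) and -0.33 ± 0.20 in male cells (limma, adjusted p = 0.249). The female value lay just outside the threshold and passed it in 8 of 39 alternatives, among them edgeR (-0.60) and DESeq2 (-0.58) on recovered reads.

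Gstm5, a mu gene known in mouse mainly from brain and testis, ranged from 98.0 to 274.5 in female smoke (median 137), against 114 to 665 in female air (median 157). Male smoke inserts held 138 to 157 (median 152), against 164 to 232 in male air (median 205), so the male groups did not overlap although the test was not passed (log2 fold change -0.43 ± 0.29, limma, adjusted p = 0.312). With the 2 male groups fitted alone, which leaves out the wide spread of the female inserts, the same difference had a limma adjusted p of 0.00321. In female cells the log2 fold change was -0.36 ± 0.29 (limma, adjusted p = 0.37). Female air insert 1, at 665, stood far above the other 5 air inserts (114 to 176), and without it the female log2 fold change was 0.0011. The authors' deposited annotation places 4933431E20Rik on the opposite strand, from 107888850 to 107896213, over the start of Gstm5 (107895854 to 107898685). As the strandedness of the libraries is not given in the sources used here, reads of the pair cannot be told apart within that overlap. Over the 24 libraries 4933431E20Rik averaged 46.2 normalised counts and Gstm5 186.

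Gstm3 had 3 to 27 reads per library in female smoke and 11 to 26 in female air, 1 to 11 in the 5 male smoke libraries with recovered reads and 4 to 14 in male air. In normalised counts its median was 4.08 in female smoke and 16.6 in female air, and 6.47 in male smoke and 5.98 in male air, with overlap in both sexes. Female smoke inserts 2 and 3 (17.7 and 21.6) stood apart from the other 4 (3.11 to 4.56), as they did for Gstm1. Fitted without the filter on low values, Gstm3 was at -1.18 in female cells (limma, adjusted p = 0.062). In male cells it was at -0.36 in that fit (limma, adjusted p = 0.66), so neither change was called.

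Of the theta class, Gstt1 fell in both sexes. Gstt1, the theta enzyme best known for activating and conjugating small haloalkanes, ranged from 13.2 to 37.5 in female smoke (median 24.2), against 49.9 to 140.0 in female air (median 74.3). It ranged from 17.7 to 61.8 in male smoke (median 46.3), against 130.0 to 273 in male air (median 186). Neither sex showed any overlap between smoke and air inserts. Gstt1 fell by 1.64 ± 0.32 log2 units in female cells, a fold of 0.32 (limma, adjusted p = 0.000554), and by 2.16 ± 0.32 in male cells, a fold of 0.223 (limma, adjusted p = 5.58e-05). These were the largest falls among the 9 tested genes in each sex, and both calls held under all 39 alternatives.

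Gstt3, the main theta transcript, fell in male cells and did not pass the test in female cells, a difference between the sexes that did not pass its own test. It ranged from 642 to 878 in female smoke (median 739), against 586 to 963 in female air (median 706), with a log2 fold change of 0.05 ± 0.13 (limma, adjusted p = 0.783; 95% interval -0.21 to 0.32). Male smoke inserts held 406 to 741 (median 556), against 697 to 798 in male air (median 755), and 5 of 6 smoke inserts lay below every air insert. In male cells Gstt3 fell by 0.43 ± 0.13 log2 units (limma, adjusted p = 0.0198). This call was lost without male smoke insert 1 (-0.40) or 3 (-0.34) and with edgeR on recovered reads (-0.38).

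Gstt2, a theta enzyme whose human form reduces organic hydroperoxides, was near the detection limit, with 1 to 28 reads per library. It ranged from 7.99 to 20.0 in female smoke (median 13.4), against 3.71 to 42.6 in female air (median 10.4), and from 2.65 to 8.90 in male smoke (median 7.53), against 1.12 to 10.7 in male air (median 5.66). The groups overlapped in both sexes, and the log2 fold change was 0.34 ± 0.47 in female cells (limma, adjusted p = 0.616) and 0.24 ± 0.47 in male cells (limma, adjusted p = 0.755).

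**Figure D3:**
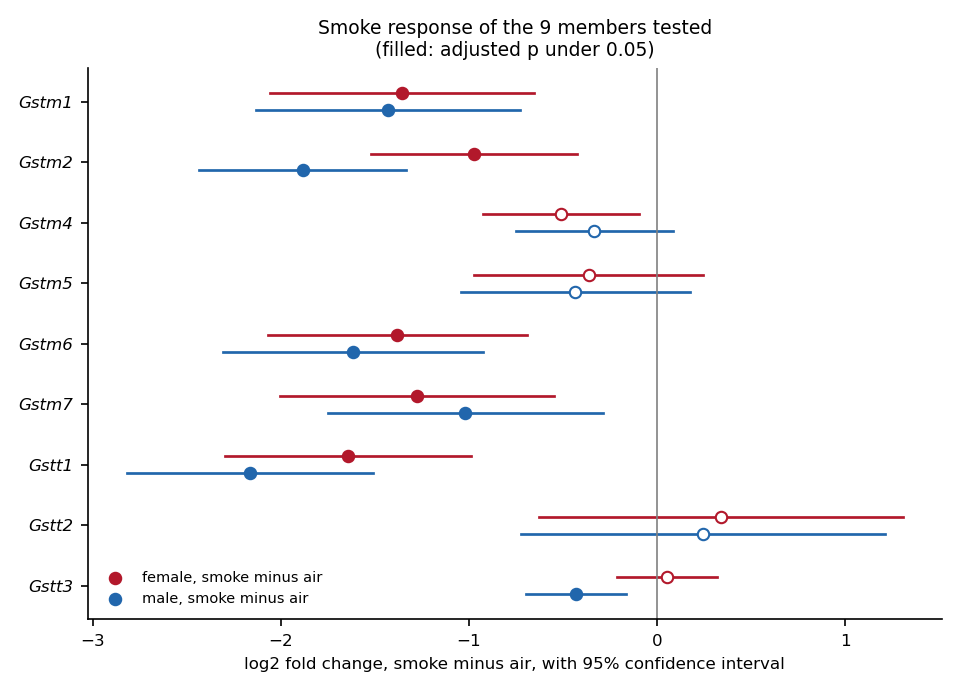
Log2 fold change of smoke over air for the 9 tested genes with 95% confidence intervals, female (red, upper) and male (blue, lower); filled points passed an adjusted p of 0.05. Gstm1, Gstm2, Gstm6, Gstm7 and Gstt1 are filled and below 0 in both sexes, and Gstt2 lies above 0 in both without passing.

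Together 5 of 9 tested genes fell in female cells (Gstm1, Gstm2, Gstm6, Gstm7 and Gstt1) and none rose, where 19.3% of all 13549 tested genes fell and 15.5% rose. In male cells 6 of 9 fell (the same 5 and Gstt3) and none rose, against 12.2% of all tested genes that fell and 9.76% that rose. The 5 genes that fell in both sexes compare with 7.48% of all tested genes. Smoke inserts lay wholly below air inserts for 1 of 9 tested genes in female cells, where 5.75% of all tested genes did so, and for 6 of 9 in male cells, where 14.2% did. The median log2 fold change of the 6 tested mu genes was -1.12 in female and -1.22 in male cells, and that of the 3 theta genes 0.05 and -0.43, beside -0.00 and -0.01 over all tested genes.

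In the authors' deposited table, with signs turned so that positive means higher in smoke, the same 5 genes had adjusted p-values under 0.05 in female cells: Gstm1 -1.05, Gstm2 -0.96, Gstm6 -1.19, Gstm7 -1.14 and Gstt1 -1.56. For male cells the authors' deposited table gave Gstm1 -1.36, Gstm2 -1.77, Gstm6 -1.44, Gstm7 -0.92, Gstt1 -1.88 and Gstt3 -0.38. It also listed Gstm5 at -0.42 with an adjusted p of 0.000297, which the test across all 4 groups here did not call. These tables rest on the same libraries and are no independent evidence.

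**Figure D4:**
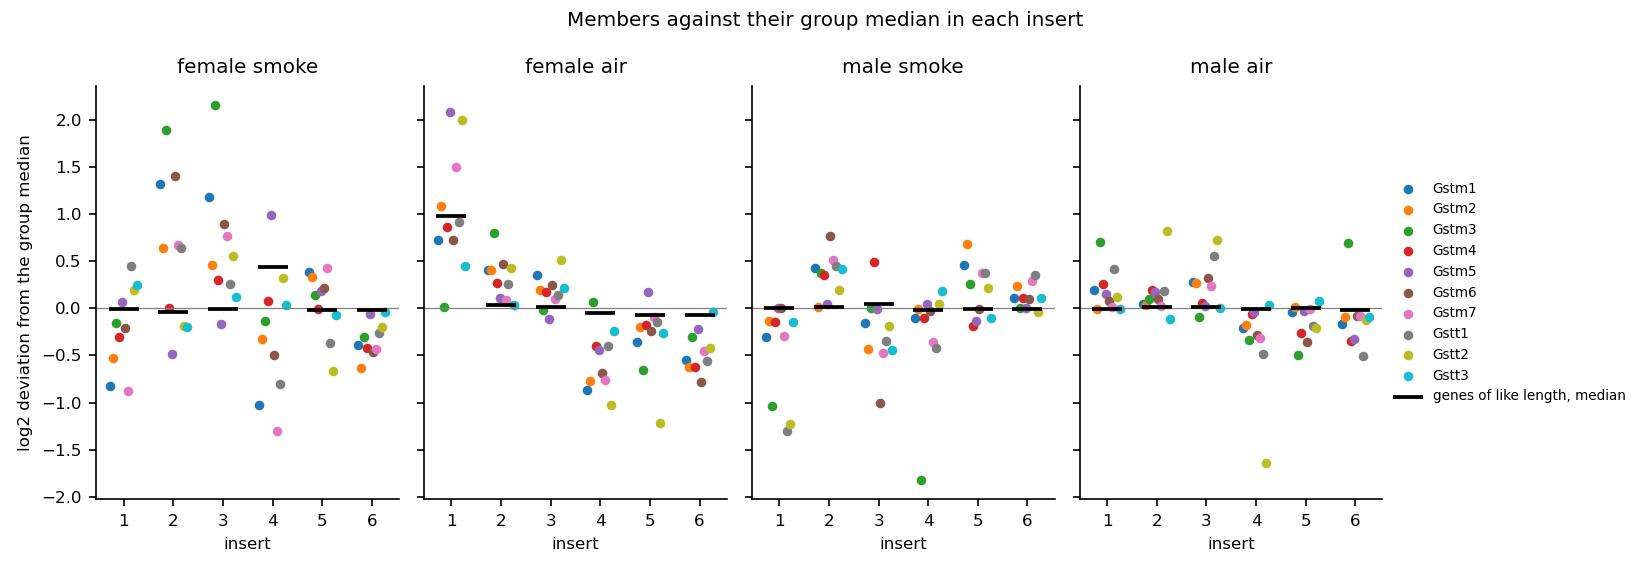
Log2 deviation of each of the 10 genes from its own group median in inserts 1 to 6 (coloured points), with the median deviation of the 2669 genes of like length as a black bar, for each of the 4 groups. In female air insert 1 the black bar is at 0.98 and 9 of the 10 genes have their highest female air value there, and in female smoke insert 4 the bar is at 0.44 while 4 of the 10 have their lowest value.

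Inserts of 1 group differed in a pattern that the labels do not explain. In female air, inserts 1 to 3 held 13964 to 18022.5 normalised counts of Gstm1 and inserts 4 to 6 held 5957 to 8502. In male air Gstt1 was at 210.3 to 273 in inserts 1 to 3 and at 130.0 to 162 in inserts 4 to 6. Nqo1, a quinone reductase and NRF2 target, split the same way in male cells, with 3491 to 4105 in smoke inserts 1 to 3 and 909 to 1099 in smoke inserts 4 to 6, and with 1340.2 to 1519.7 in air inserts 1 to 3 and 757 to 824 in air inserts 4 to 6. Within inserts 1 to 3 alone, 2 genes were called in female cells, namely Gstm2 (-1.32) and Gstt1 (-1.58), where Gstm1 (-1.45, limma, adjusted p = 0.0875), Gstm6 (-1.43, limma, adjusted p = 0.0969) and Gstm7 (-1.46, limma, adjusted p = 0.105) were not. Within inserts 4 to 6 alone, Gstm1 (-1.26), Gstm6 (-1.33), Gstm7 (-1.09) and Gstt1 (-1.70) were called, and Gstm2 (-0.63, limma, adjusted p = 0.0564) was not. In male cells Gstm1, Gstm2, Gstm6 and Gstt1 were called within each set of 3 inserts. Without female air insert 1 and female smoke insert 4 all 5 female calls held, at -0.98 for Gstm1, -0.70 for Gstm2, -1.08 for Gstm6, -0.75 for Gstm7 and -1.31 for Gstt1, so that the Gstm7 change was less by more than 1.5 times. The other female values were then -0.37 for Gstm4, -0.18 for Gstm5, 0.67 for Gstt2 and 0.13 for Gstt3, none of them called. In the same fit Gstm5 was called lower in male smoke (-0.43, limma, adjusted p = 0.00579).

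By limma no gene of the 9 passed the test of a difference in smoke response between the sexes. Only 1.03% of all tested genes did, so the 2 classes did not stand apart from genes in general. On recovered reads edgeR and DESeq2 called none either. At an unadjusted p under 0.05 there were 2, Gstm2 and Gstt3. The log2 fold change of Gstm2 was higher, that is less negative, in female than in male cells by 0.91 ± 0.38 (limma, adjusted p = 0.283; 95% interval 0.13 to 1.68), and that of Gstt3 was higher by 0.48 ± 0.18 (limma, adjusted p = 0.228; interval 0.11 to 0.86). Leaving out female air insert 1 and female smoke insert 4 moved the Gstm2 difference to 1.19 and past the threshold (limma, adjusted p = 0.039). Array quality weights called Gstm2 (0.99, limma, adjusted p = 0.0174) and Gstt3 (0.51, limma, adjusted p = 0.00485). Within inserts 4 to 6 alone Gstt3 was called (0.61, limma, adjusted p = 0.0404). For Gstm1 the difference was 0.08 ± 0.48 (95% interval -0.92 to 1.07).

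Baselines in air differed between female and male cultures for many genes, with 5282 of all 13549 tested genes called in either direction. Of the 9 tested genes of the mu and theta classes, 3 were lower in female cells and none was higher by the test. Among all tested genes 19.0% were lower and 20.0% higher, so the 2 classes were not called more often than genes in general. With column total scaling the median of all genes moved to -0.11 in air and -0.15 in smoke, and the genes called in air became 3387 lower and 2083 higher in place of 2569 and 2713, and in smoke 3047 and 1628 in place of 2067 and 2297. Gstm2 averaged 1947 ± 989 in female air and 8801 ± 955 in male air (SD, n = 6 each), a log2 difference of -2.31 ± 0.27 (limma, adjusted p = 2.79e-07). Gstm1 averaged 11400.0 ± 4763 and 22065 ± 3010.5 in the same groups (-1.05 ± 0.34, limma, adjusted p = 0.0167), and Gstt1 80.4 ± 32.7 and 192 ± 61 (-1.27 ± 0.32, limma, adjusted p = 0.00266). For Gstm1 and Gstm2 every female air insert lay below every male air insert, as 16.7% of all tested genes did. Within inserts 1 to 3 alone the Gstm1 difference was -0.67 and not called (limma, adjusted p = 0.303). Gstm6 went the other way without passing the test, with 92.1 ± 38.5 in female air and 50.3 ± 9.2 in male air (0.77 ± 0.33, limma, adjusted p = 0.0705). It was called higher in female air under 7 of the 38 alternatives that gave it a value. Among them were edgeR (0.88, adjusted p = 0.0432) and DESeq2 (0.87, adjusted p = 0.0264) on recovered reads and the 2 groups compared alone (limma, adjusted p = 0.0322). In the authors' deposited table for air, with positive meaning higher in female cells, Gstm1 (-0.95), Gstm2 (-2.13) and Gstt1 (-1.24) were lower and Gstm6 (0.82, adjusted p = 0.00738) and Gstm3 (1.22, adjusted p = 0.00265) higher. Gstm3 was also called higher in female air in the fit without the filter on low values (1.23, limma, adjusted p = 0.0465). For Gstm5 a female decrement was called (-0.48) once female air insert 1 was left out. Without female air insert 1 and female smoke insert 4 the air differences of Gstm1 (-1.21), Gstm2 (-2.52) and Gstt1 (-1.45) remained called.

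After smoke, 2 of 9 genes were lower in female than in male cells and 2 higher, where 15.3% of all tested genes were lower and 17.0% higher. Gstm2 averaged 953 ± 353 in female smoke and 2445 ± 677 in male smoke (-1.40 ± 0.27, limma, adjusted p = 0.000235), with no overlap, which held for 8.0% of all tested genes. Gstm1 averaged 5027 ± 3353 in female smoke and 8282 ± 1838 in male smoke (-0.98 ± 0.34, limma, adjusted p = 0.03), a call that was lost without any one of female smoke inserts 1, 4 or 6 or male smoke inserts 2 or 5. The Gstm1 call was also lost with edgeR (-0.64, adjusted p = 0.191) and DESeq2 (-0.64, adjusted p = 0.155) on recovered reads, with the 2 groups compared alone (limma, adjusted p = 0.0716) and within inserts 1 to 3 alone (-0.45, limma, adjusted p = 0.546). Gstm6 averaged 36.7 ± 22.0 in female smoke and 16.6 ± 6.5 in male smoke (1.01 ± 0.33, limma, adjusted p = 0.0233), lost without female smoke insert 2 or 3 or male smoke insert 3, with the 2 groups compared alone (limma, adjusted p = 0.0638) and within inserts 4 to 6 alone (0.49, limma, adjusted p = 0.163). Gstt1 did not pass the test (-0.75, limma, adjusted p = 0.073) but was called lower in female smoke under 7 of 39 alternatives, among them quantile scaling (-0.82), column total scaling (-0.90), array quality weights (-0.92) and inserts 4 to 6 alone (-1.47). Without that pair of libraries the smoke differences were -0.75 for Gstm1, -1.34 for Gstm2, 1.15 for Gstm6 and 0.42 for Gstt3, all called. Gstt3 averaged 750.3 ± 82.3 in female smoke and 565 ± 116 in male smoke (0.43 ± 0.13, limma, adjusted p = 0.0132), a call lost with column total scaling (0.28) and within inserts 1 to 3 alone (0.53). The air comparison shares its libraries with the smoke responses above, so these values are not independent of them.

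Of the genes next to the 2 clusters, Susd2 fell in female cells, and the others tested rose or were not called. On either side of the mu cluster, Csf1, a macrophage growth factor, had log2 fold changes of -0.23 in female and -0.32 in male cells, and Ahcyl1 -0.07 and -0.08, none of them called. Ampd2, an AMP deaminase 29200 bases beyond Gstm4, rose by 0.51 ± 0.12 in female (limma, adjusted p = 0.00198) and 0.47 ± 0.12 in male cells (limma, adjusted p = 0.00548). Eps8l3, Gm12500 and Gnat2 were too low to test. Beside the theta cluster, Ddt, only 743 bases from Gstt3, was at -0.08 in female and -0.14 in male cells, and Cabin1 and Smarcb1 were likewise not called. Susd2 fell in female cells (-1.04 ± 0.34, limma, adjusted p = 0.0203), and Mif (1.003 ± 0.26, limma, adjusted p = 0.00782) and Derl3 (2.19 ± 0.46, limma, adjusted p = 0.00176) rose in male cells. Gstt4, inside the theta cluster, was listed at 0 in 23 libraries and had 1 read in male smoke insert 1.

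Promoter windows of 4 genes are shown because 3 of them belong to genes that fell and 2 hold letters of an antioxidant response element, the site through which NRF2 acts. They come from RefSeq on GRCm38.p6, a C57BL/6J reference, whereas the cells were FVB/NJ, and run from 250 bases before the transcript start to 50 after it. The searched letters were TGACNNNGC (antioxidant response element), TNGCGTG (the site of the aryl hydrocarbon receptor) and TGANTCA (AP-1), on both strands, and they can overlap each other. Capitals mark a match.
Gstm2 (chr3:107986371-107986670, minus strand, fell in both sexes): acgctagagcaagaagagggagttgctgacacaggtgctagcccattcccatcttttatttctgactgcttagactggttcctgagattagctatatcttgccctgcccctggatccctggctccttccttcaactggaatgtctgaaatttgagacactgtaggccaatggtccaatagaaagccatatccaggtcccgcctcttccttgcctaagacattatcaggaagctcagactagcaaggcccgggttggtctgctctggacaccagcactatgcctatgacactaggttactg
Gstm7 (chr3:107931565-107931864, minus strand, fell in both sexes): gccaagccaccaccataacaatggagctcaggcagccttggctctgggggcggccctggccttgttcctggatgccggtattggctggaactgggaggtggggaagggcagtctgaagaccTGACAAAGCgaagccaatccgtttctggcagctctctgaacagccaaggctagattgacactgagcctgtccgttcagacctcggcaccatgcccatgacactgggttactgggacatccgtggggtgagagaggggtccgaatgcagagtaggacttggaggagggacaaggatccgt
Gstt1 (chr10:75797682-75797981, minus strand, fell in both sexes): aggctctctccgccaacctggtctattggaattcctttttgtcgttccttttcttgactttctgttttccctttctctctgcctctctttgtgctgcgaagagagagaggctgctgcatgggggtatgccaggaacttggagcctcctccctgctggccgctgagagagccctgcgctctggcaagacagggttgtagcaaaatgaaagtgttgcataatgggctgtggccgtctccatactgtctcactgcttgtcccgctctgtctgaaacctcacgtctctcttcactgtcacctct
Gstm5 (chr3:107895604-107895903, plus strand, not called in either sex): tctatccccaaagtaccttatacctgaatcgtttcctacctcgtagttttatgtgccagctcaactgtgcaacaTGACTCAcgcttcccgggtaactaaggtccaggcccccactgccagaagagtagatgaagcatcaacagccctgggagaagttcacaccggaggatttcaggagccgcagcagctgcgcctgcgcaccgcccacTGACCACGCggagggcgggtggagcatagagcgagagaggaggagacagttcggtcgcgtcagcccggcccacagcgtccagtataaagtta
In Gstm5 the match to TGACNNNGC lies at bases -42 to -34 from the start and that to TGANTCA at -176 to -170, and in this Gstm7 window TGACNNNGC matches at -129 to -121. No match to any of the 3 patterns was found in the listed windows of Gstm1, Gstm2, Gstm3, Gstm4, Gstm6, Gstt1 or Gstt3, and Gstt2 was not in the table. The other listed window of Gstm7 (chr3:107931768-107932067) held no match either. Of all 32544 mouse windows, 12.4% hold TGACNNNGC, 5.09% TNGCGTG and 7.79% TGANTCA. Gstm7, with a match to TGACNNNGC in the window shown, fell in both sexes. Gstm5, with matches to TGACNNNGC and TGANTCA, did not pass the test in either. The part of these sites in the smoke responses was not tested.

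Other genes of glutathione and xenobiotic metabolism moved in mixed directions. Of 16 further glutathione transferases tested, 3 rose and none fell in female cells, and 3 rose and 4 fell in male cells (median log2 fold change -0.13 in female and -0.11 in male cells). Gsta1, an alpha-class enzyme, rose by 2.07 ± 0.63 in female (limma, adjusted p = 0.0139) and 2.39 ± 0.63 in male cells (limma, adjusted p = 0.00918). Gstk1, the mitochondrial and peroxisomal kappa enzyme, fell in male cells (-1.50 ± 0.28, limma, adjusted p = 0.000582) and was at -0.57 in female cells (limma, adjusted p = 0.121). Of 10 genes listed for glutathione supply, 5 rose and 1 fell in female cells and 2 rose and 1 fell in male cells (medians 0.47 and 0.41). The 5 include Chac1, whose product uses glutathione up. Over all tested genes 15.5% rose and 19.3% fell in female cells, and 9.76% rose and 12.2% fell in male cells. Chac1, which degrades glutathione, rose by 2.26 ± 0.46 in female cells (limma, adjusted p = 0.000825) and was at 0.50 in male cells, and Oplah, the 5-oxoprolinase, was at -0.78 ± 0.21 in female and -1.53 ± 0.21 in male cells (limma, adjusted p = 0.00652 and 2.95e-05).

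Of 15 genes of conjugate export and the mercapturate pathway, none rose and 5 fell in female cells, and 2 rose and 8 fell in male cells (medians -0.17 and -0.46). For this and the next 2 lists, the shares over all tested genes were 15.5% risen and 19.3% fallen in female cells. In male cells they were 9.76% and 12.2%. Ggt5, a gamma-glutamyl cleaving enzyme, fell by 1.98 ± 0.34 in female cells (limma, adjusted p = 0.000219) and was at -0.86 in male cells, and its relative Ggt7 was at -1.23 ± 0.45 in female and -1.78 ± 0.45 in male cells (limma, adjusted p = 0.0372 and 0.00678). Among 16 genes of NRF2, its regulators and its targets, 9 rose in female cells and 1 in male cells, with none lower by the test (medians 0.43 and 0.29). Nqo1 rose by 1.16 ± 0.33 in female cells (limma, adjusted p = 0.00919) and was at 0.89 ± 0.33 in male cells (limma, adjusted p = 0.0568), and Hmox1, heme oxygenase, rose by 0.91 ± 0.35 in female and 1.04 ± 0.35 in male cells (limma, adjusted p = 0.0443 and 0.0338). Of 10 xenobiotic receptors and P450 targets, 3 rose and 1 fell in female cells, and 3 rose and 3 fell in male cells (medians 0.04 and -0.22). Cyp1a1, the P450 induced through the aryl hydrocarbon receptor, averaged 137 ± 115 in female smoke and 3.41 ± 2.62 in female air, and 314 ± 307 in male smoke and 6.79 ± 2.68 in male air (SD, n = 6 each). Ahrr, the repressor of that receptor, averaged 11.9 ± 7.3 in female smoke and 0.15 ± 0.38 in female air, and 31.2 ± 21.8 in male smoke and 1.93 ± 1.28 in male air (SD, n = 6 each). Without female air insert 1 and female smoke insert 4, the male counts were 8 risen and 1 fallen for the NRF2 list, 4 risen for glutathione supply and 6 fallen for the xenobiotic list, and the female count for export and mercapturates was 1 risen and 3 fallen.

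**Figure D5:**
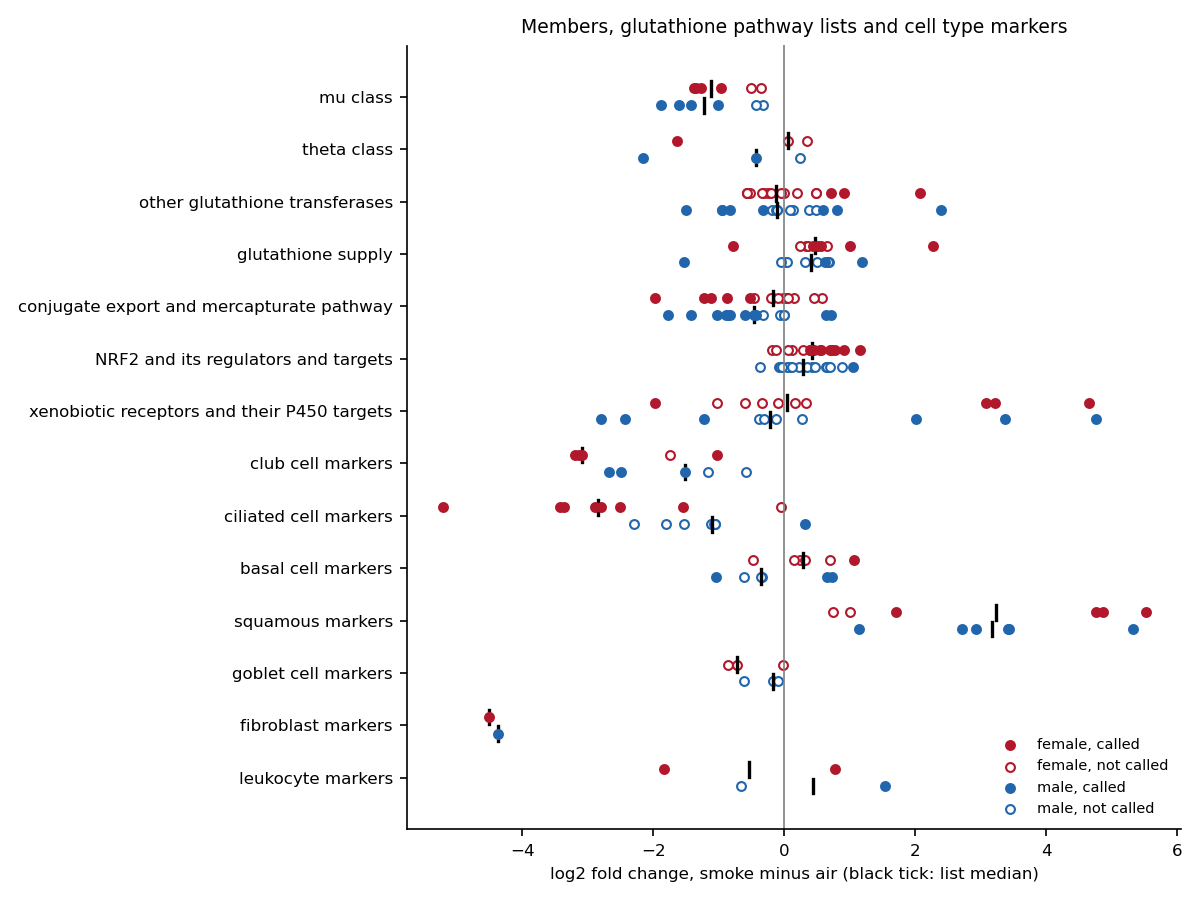
Log2 fold change of smoke over air for each tested gene (points) in the mu and theta classes, the pathway lists and the cell type markers, female (red, upper) and male (blue, lower), filled where the adjusted p was under 0.05, with the list median as a black tick. The mu class medians lie at -1.12 and -1.22, the NRF2 list medians at 0.43 and 0.29, and the club cell medians at -3.09 and -1.53.

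Markers of the cell types of this epithelium moved in the same comparisons. Their counts stand beside 15.5% of all tested genes that rose and 19.3% that fell in female cells, and 9.76% and 12.2% in male cells. Of 5 club cell markers, secretory cell genes of the airway, 4 fell in female and 3 in male cells, with medians of -3.09 and -1.53, and their summed level was 25324 to 102183 in female smoke and 115033 to 188052 in female air, and 48457 to 126277 in male smoke and 217487 to 310607 in male air. Scgb3a2, a secretoglobin, was at -3.19 ± 0.66 in female and -2.49 ± 0.66 in male cells (limma, adjusted p = 0.000963 and 0.00918), and Cckar at -3.14 ± 0.52 and -2.67 ± 0.52 (limma, adjusted p = 0.000157 and 0.000912). The female air inserts spread widely for Scgb3a2, with an SD above the mean (14735 ± 25516, against 1107 ± 1283 in female smoke). Of 8 ciliated cell markers, 7 fell in female cells, and none fell and 1 rose in male cells, with summed levels of 12683 to 27069 in female smoke and 26566 to 47397 in female air, and 12683 to 19663 in male smoke and 17091 to 24510.2 in male air. Sec14l3, a ciliated cell lipid transfer gene, fell by 5.22 ± 1.19 in female cells (limma, adjusted p = 0.00204) and was at -2.30 in male cells, and Dnah5, an axonemal dynein, fell by 3.43 ± 1.06 in female cells (limma, adjusted p = 0.0148) and was at -1.81 in male cells. Without female air insert 1 and female smoke insert 4, 4 ciliated markers fell in male cells.

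Of 6 squamous markers, 4 rose in female and 6 in male cells, with Krt6b, a stress keratin, at 5.52 ± 0.44 and 5.32 ± 0.44 (limma, adjusted p = 3.19e-08 and 6.83e-08) and Sprr1a, a cornified envelope gene, at 4.87 ± 0.53 and 2.71 ± 0.53 (limma, adjusted p = 2.04e-06 and 0.000941). Their summed level was 299097 to 410673 in female smoke and 136331 to 284303 in female air, and 21846 to 54547 in male smoke and 5499 to 11702 in male air. Of 6 basal markers, 1 rose in female cells, and 2 rose and 1 fell in male cells. Among all tested genes 15.5% rose in female cells, and 9.76% rose and 12.2% fell in male cells. Krt5, a basal keratin, rose by 1.06 ± 0.19 and 0.65 ± 0.19 (limma, adjusted p = 0.000318 and 0.0172), and Ngfr fell in male cells (-1.04 ± 0.37, limma, adjusted p = 0.0453). The male count of fallen basal markers was not stable: it moved to 0 or 2 in 26 of 39 alternatives. Summed basal markers were at 242938 to 403119 in female smoke and 163854 to 266798 in female air, and 119942 to 251976 in male smoke and 167844 to 211348 in male air. None of the 3 goblet markers tested of 4 was called, with sums of 407 to 1547 in female smoke and 828 to 3020.0 in female air, and 133 to 384 in male smoke and 245 to 313 in male air. No marker of these 5 lists was at 0 throughout a group. The part of these cell type markers in the changes of Gstm1, Gstm2, Gstm6, Gstm7 and Gstt1 was not tested.

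Marker lists of cell types from outside the epithelium were measured as well. Dcn, the only fibroblast marker of 5 above the filter, was at -4.52 ± 0.80 in female and -4.37 ± 0.80 in male cells (limma, adjusted p = 0.00029 and 0.000511), and the 5 together summed to 10.3 to 88.6 in female smoke and 144 to 469.6 in female air, and 8.88 to 30.5 in male smoke and 83.2 to 340.2 in male air. Of 2 leukocyte markers tested of 4, Lyz2, which airway secretory cells can also express, fell in female cells (-1.83 ± 0.49, limma, adjusted p = 0.00575), and Cd68 rose by 0.77 ± 0.24 in female and 1.53 ± 0.24 in male cells (limma, adjusted p = 0.0159 and 0.000106). The 4 leukocyte markers summed to 4159 to 39430.2 in female smoke and 32372 to 130613 in female air, and 5609 to 44183 in male smoke and 30273 to 40494 in male air, nearly all of it Lyz2. The 2 hepatocyte markers, of a cell type known for high mu-class levels, summed to at most 5.62 in any library, with Apoa1 at 0 throughout female smoke and male air.

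Over the 24 libraries, the genes with log2 profiles nearest to that of Gstm1 were D630039A03Rik, P4htm and Ces1d, with root mean square differences of 0.37, 0.38 and 0.41 log2 units after centring, where Gstm1 itself varied by 1.03. Within its own class Gstm7 was eighth nearest of all tested genes (0.43), Gstm2 ranked 65 (0.56) and Gstm4 ranked 545 (0.78), while Gstm6 ranked 3037 (0.997) and Gstm5 3150 (1.002), about as far as the variation of Gstm1 itself. For Gstt3, which varied by 0.27, Hadh (0.15) and Hadhb (0.16) were among the nearest, while Gstt1 ranked 11855 (1.14). The values were centred but not scaled, so a gene that varies widely must lie far from one that varies little. The rank of Gstt1 therefore does not show whether it changed in the same direction as Gstt3. These libraries share groups, depth and the pattern of inserts, so likeness of profile is given as a description.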

How the data were processed

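RNA of 24 inserts was sequenced as total RNA libraries. The starting values were a deposited signal, namely counts per gene that the authors had scaled with DESeq2, each library by its own factor, per the submitters' processing notes. These also name FastQC 0.11.9, Trimmomatic 0.38.0 and HTSeq with GRCm38 (mm10). Aligner, strandedness and the handling of reads that match several genes: not given in the sources used here. Values were whole multiples of 1 step in all 24 libraries, within 0.001 reads or, for high counts, a wider limit. Reads were taken as recovered in 23 of them. Male smoke insert 5 was left out because its step (0.989) was too near 1, so fits on recovered reads used 5 male smoke inserts. The authors' deposited tables hold log2 fold changes with standard errors in log2 units, a Wald statistic (a score), p-values and, as positions on mm10, gene coordinates; their signs were turned here.

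Tests used limma 3.58.1 (R 4.3.3; lmFit, eBayes with trend, two-sided) on log2(normalised count + 1), which understates changes of low genes, with 1 term per group over all 24 libraries. Genes with a mean of at least 10 were kept (13549 of 25239) and p-values Benjamini-Hochberg adjusted over them; adjusted p under 0.05 was called, and "rose" and "fell" mean called. Alternatives used edgeR 4.0.16 and DESeq2 1.42.0 on recovered reads. The fit was tested on simulated data. Levels per kilobase used exon lengths from the deposited annotation. The members and lists were chosen with earlier results of these data known. Named genes were all 10 members, the 2 most changed called genes of each list, the 3 nearest genes with values on each side of each cluster, and the 3 nearest profiles, of which 1 is not reported here; Nqo1 and the rankings of members were added to show the pattern of inserts and of the classes. Library pairs were checked for duplicates and none agreed within sampling noise.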

Additional observations from a re-analysis of the deposited data

Results flagged for a closer look

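Of 40 groups of 6 inserts tested for a single outlying value (10 genes in 4 groups, on the log2 scale), 3 had one, and chance gives about 1 in 20. Gstm5 in female air insert 1 was high at 664.85 normalised counts, where the gap to the next insert was 0.756 of the group's range. Gstm5 in male smoke insert 5 was low at 138.42, with a gap of 0.718 of a narrow range (138 to 157). Gstt2 in male smoke insert 1 was low at 2.65, with a gap of 0.717 of the range.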

How the results depend on the processing

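Depth limits Gstm3 and Gstt2 most, with 1 to 28 reads per library. The female falls of Gstm1, Gstm2, Gstm6, Gstm7 and Gstt1 kept their direction under every one of the 39 alternatives that gave a value. The count of members called in female smoke against air, 5, was 3 with the 2 groups compared alone, where Gstm2 (limma, adjusted p = 0.0526) and Gstm7 (0.0597) were lost, and 2 in inserts 1 to 3 alone; quantile scaling lost Gstm7 in both sexes. Leaving out 1 library gave 5 to 6 in female and 4 to 6 in male cells. For the difference of the smoke responses the count, 0, was 2 with array quality weights (Gstm2 0.99, Gstt3 0.51), 1 without female air insert 1 and female smoke insert 4, and 1 in inserts 4 to 6 alone (Gstt3 0.61). For female against male in air it was 6 with array weights in place of 3, and in smoke 2 in inserts 1 to 3 alone in place of 4. With column total scaling Gstt3 lost its call in female against male smoke (0.28).

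Values that changed sign were uncalled in both settings, and the cause was not tested. In inserts 1 to 3 alone these were Gstt2 (-0.41 female, -0.60 male) and Gstt3 (-0.11 female) for smoke against air, Gstm5 (-0.54) for the difference of responses, and Gstm4 (0.053), Gstm5 (0.19), Gstm7 (0.15) and Gstt3 (0.17) for female against male in air. In inserts 4 to 6 alone they were Gstm5 (0.35, female smoke against air), Gstm1 (-0.068), Gstm4 (0.14), Gstt1 (-0.18) and Gstt2 (-0.00025) for the difference, and Gstm5 (0.26) for the sexes in smoke. With edgeR and DESeq2 on recovered reads they were Gstt2 in female cells (-0.015 and -0.014), Gstm5 (-0.22 and -0.19) and Gstt2 (-0.086 and -0.084) for the difference, Gstm5 for the sexes in air (0.21 and 0.19) and, with DESeq2, for the sexes in smoke (0.00042). With array weights the difference was 0.091 for Gstm4 and 0.028 for Gstm7, and without the pair of libraries 0.27 for Gstm7. Leaving out 1 library gave -0.54 to 0.0011 for Gstm5 and -0.0042 to 0.14 for Gstt3 in female cells, -0.074 to 0.46 for Gstt2 in male cells, -0.17 to 0.30 for Gstm1, -0.11 to 0.43 for Gstm5, -0.44 to 0.0295 for Gstm7 and -0.15 to 0.49 for Gstt2 for the difference, -0.48 to 0.023 for Gstm5 and -0.14 to 0.0027 for Gstt3 in air, and -0.23 to 0.066 for Gstm5 in smoke.

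Over all genes, 4713 were called in female cells, 2979 in male cells and 140 for the difference. These were 2857, 6148 and no value with the 2 groups alone, 7709, 6677 and 2420 with array weights, 656, 2507 and 40 in inserts 1 to 3, 6243, 931 and 637 in inserts 4 to 6, and 6188, 6398 and 840 without the pair of libraries; DESeq2 called 506 for the difference and leaving out 1 library 75 to 431, and in male cells 2110 to 4596. Single inserts of the same number were not regularly alike between groups (correlations of same-numbered deviations from -0.242 to 0.367). That check cannot address a split shared by inserts 1 to 3 and 4 to 6 as sets, as seen for Nqo1 in male cells. The main fit has no term for such a split. With the insert number as a replicate block, 6 members were called in female cells (Gstm4 added, -0.51, limma, adjusted p = 0.0331) and 6 in male cells, 4534 and 2798 over all genes, with none called for the difference. Gstm6 was higher in female air under that block (limma, adjusted p = 0.0462).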
